A study of Mus musculus with 10 samples.

Results

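The cells described here were innate-like αβ T cells of mouse colorectal carcinoma that carried RNA of the adaptor genes Fcer1g or Tyrobp. They were selected on measured values. A cell needed at least 300 detected genes, at most 10% of its unique molecular identifiers (UMIs, the counted RNA molecules) from mitochondrial genes, at least 1 UMI of Cd3e or Cd3g, at least 1 of Fcer1g or Tyrobp and at least 1 of Cd7. It could hold no UMI of Lyz2 or Cd4, and its barcode needed a productive T cell receptor β (TRB) contig in the receptor library of the same tumour. In all, 288 cells met this rule, out of 16169 cells with a productive TRB contig, 21549 cells that passed the RNA filters and 22590 barcodes in the series.

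The study profiled single cells of colorectal carcinoma with 5 RNA libraries and 5 matched T cell receptor libraries. Tumours were untreated (2 RNA libraries), treated with S. chamaejasme, a plant used in traditional medicine (1 RNA library), or treated with S. chamaejasme plus an antibody against the checkpoint receptor PD-1 (2 RNA libraries, called the combination). The labels give no strain, age, sex, dose or time, include no group with anti-PD-1 alone, and do not say whether libraries of a group came from separate animals, so p values measure only the spread between these libraries. No batch is labelled, so treatment and any batch between the groups cannot be told apart.

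Fcer1g encodes FcεRIγ and Tyrobp encodes DAP12, membrane adaptors whose ITAM motifs pass on signals from activating receptors and which are best known from natural killer (NK) and myeloid cells. αβ T cells that carry such adaptors, NK receptors and the CD8αα homodimer in place of CD8αβ are known from the intestinal epithelium, where many arise in the thymus after strong receptor signals and are called natural intraepithelial lymphocytes. Cd8a encodes the CD8α chain and Cd8b1 the CD8β chain, so a cell that makes CD8α without CD8β can form CD8αα but not CD8αβ. Mouse strains that carry endogenous retroviral superantigens lose conventional T cells of certain TRBV families in the thymus, which makes the V genes of an unconventional population of interest.

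The RNA libraries held 8763821 to 27759543 UMIs in 2367 to 5709 barcodes, with a median of 3452 to 4969 UMIs in the cells kept. The selected cells had a median of 3282 to 4713.5 UMIs by library and a median mitochondrial share of 2.31% to 2.79%. Of all barcodes, 251 occurred in more than 1 library, and 0 of the 288 cells shared its barcode with a selected cell of another library. The intervals below are 95% Wilson intervals and cover counting error only.

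The genes of the label were present in every library, which the rule sets for Fcer1g, Tyrobp and Cd7, so that their levels are a description. Fcer1g, given as CPM, the UMIs scaled to the same total in each sum of cells, for the sums of the selected cells, stood at 463 in untreated 1, 682 in untreated 2, 939 in S. chamaejasme, 786 in combination 1 and 675 in combination 2. Tyrobp stood at 278, 545, 403, 372 and 251 CPM in the same order. Neither adaptor was confined to 1 library or group. Fcer1g alone was found in 149 cells, Tyrobp alone in 36 and both in 103. Cd7, which encodes an immunoglobulin-family receptor of early T and NK cells, was at 2777.5, 2056, 2984, 2864 and 2505 CPM.

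Xcl1 and Cd160 were not part of the rule, although they belong to the label. Xcl1, the chemokine that attracts cross-presenting dendritic cells, was at 1713 CPM in untreated 1, 1929.9 in untreated 2, 1247 in S. chamaejasme, 840.5 in combination 1 and 915 in combination 2. CD8 T cells of the same libraries without either adaptor, the comparison class described below, had 99.1, 73.4, 87.0, 43.2 and 55.8 CPM of Xcl1, so the classes did not overlap. At least 1 Xcl1 UMI was seen in 78.1% of the selected cells, 11.1% of the comparison CD8 cells and 0.864% of CD4 T cells. After thinning each cell to 2000 UMIs, the Xcl1 shares were 65.7%, 6.85% and 0.586%. Cd160, a receptor of the intraepithelial and NK compartments, was at 324, 378, 827, 577 and 544 CPM against 119.8, 32.0, 163, 52.8 and 43.3 CPM in the comparison cells. The Cd160 levels did not overlap either, and no test is given for either gene.

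The coding genes of the label lie on different chromosomes of GRCm38 except for a shared chromosome 1. Fcer1g spans 1:171229572-171234365 on the minus strand and Xcl1 1:164931644-164935527, also on the minus strand. Tyrobp spans 7:30413760-30417585 on the plus strand, Cd7 11:121036747-121039418 on the minus strand and Cd160 3:96798763-96829351 on the minus strand. Cd8a and Cd8b1 are neighbours on chromosome 6, at 6:71373427-71379173 and 6:71322788-71337494, both on the plus strand.

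Selected cells were rare in all tumours and most frequent in the S. chamaejasme library. They numbered 6 in untreated 1, 21 in untreated 2, 173 in S. chamaejasme, 50 in combination 1 and 38 in combination 2. As a share of cells with a productive TRB contig this was 0.426% (0.195% to 0.927%), 0.847% (0.555% to 1.29%), 4.52% (3.91% to 5.22%), 1.16% (0.881% to 1.53%) and 0.917% (0.669% to 1.26%). The S. chamaejasme library alone gave 60.1% of all selected cells, and its interval did not overlap that of any other library. With 1 library in that group the share has no replicate check. The combination libraries averaged 1.04% and the untreated libraries 0.637%, a difference of 0.402 percentage points (two-sided exact permutation test, n = 2 against 2, p = 0.333, the smallest that this design allows).

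**Figure D1:**
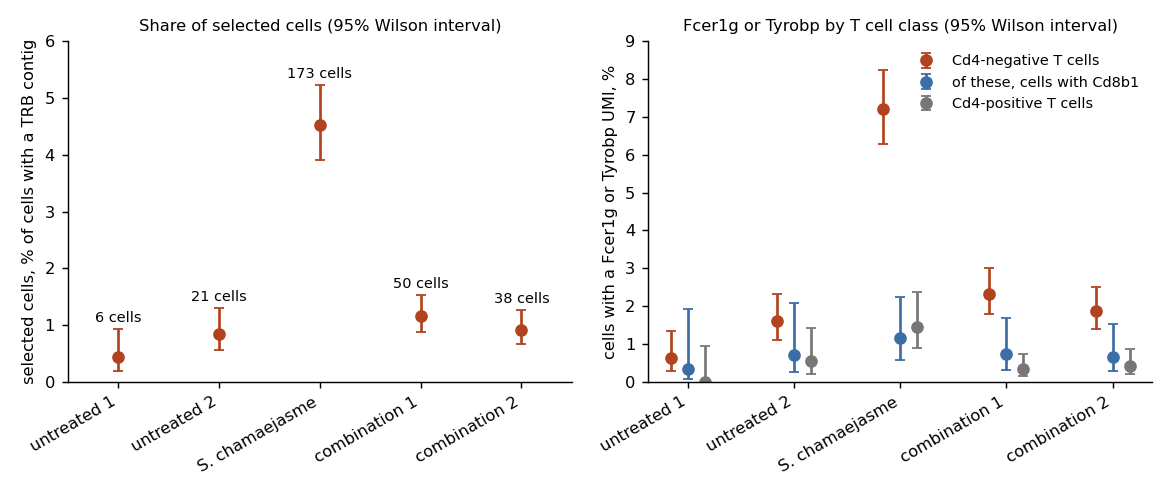
Left, the selected cells as a percentage of cells with a productive TRB contig; right, the percentage of cells with a Fcer1g or Tyrobp UMI among T cells without Cd4, among those of them with Cd8b1 and among CD4 T cells. Points are the 5 libraries and bars their 95% Wilson intervals; the S. chamaejasme library stands at 4.52% on the left and the other 4 between 0.426% and 1.16%.

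Sparse adaptor UMIs can come from free RNA, so the same adaptor criterion was read in cells not known for these genes. At least 1 Fcer1g or Tyrobp UMI was found in 32 of 5590 CD4 T cells (0.572%, 0.406% to 0.807%), which had a median of 4826 UMIs, and 13 of these CD4 cells also had a Cd7 UMI. In cells with Cd8b1 it was 22 of 2861 (0.769%, median of 5058 UMIs). In T cells without Cd4 and Lyz2 it was 327 of 10107 (3.24%, median of 4280 UMIs), of which 288 had Cd7. The CD4 share was itself highest in the S. chamaejasme library, at 1.45%. The S. chamaejasme share of selected cells was the highest of the 5 also with at least 2 adaptor UMIs (3.29%), after thinning to 2000 UMIs (3.79%) and with putative doublets removed (4.17%).

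The adaptor threshold ran through a graded range, given here without a test. Of the 288 cells, 74 had exactly 1 adaptor UMI, 46 had 2 and 44 had at least 10, with a median of 3. The 74 cells just inside the threshold had 692 CPM of Xcl1, 336 CPM of Ikzf2 and 56.0 CPM of Cd8b1. The 101 cells with 5 or more adaptor UMIs had 1588 CPM of Xcl1, 536 CPM of Ikzf2 and 2.22 CPM of Cd8b1. The 2090 cells just outside, which met every criterion except that they had no adaptor UMI, had 80.8 CPM of Xcl1, 70.2 CPM of Ikzf2 and 521 CPM of Cd8b1. On the Cd7 side, 23 selected cells had exactly 1 Cd7 UMI, and 39 cells failed only for lack of one. Those 39 cells had 654 CPM of Xcl1 but 74.6 CPM of Cd160. A further 14 cells failed only through Cd4 and 1 cell only through Lyz2.

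Few of the selected cells held Cd8b1 RNA. Among cells with a Cd8a or Cd8b1 UMI, Cd8b1 gave 33.3% of the summed Cd8a plus Cd8b1 UMIs in untreated 1, 13.0% in untreated 2, 3.50% in S. chamaejasme, 5.36% in combination 1 and 22.0% in combination 2. The corresponding Cd8b1 shares in CD8 cells without the adaptors were 49.97%, 57.7%, 49.95%, 64.4% and 64.4%. The value was lower in the selected cells in 5 of 5 libraries, and the 2 classes did not overlap. The value of untreated 1 rested on 3 cells and 3 UMIs. The means were 15.45% ± 12.4 and 57.3% ± 7.22 (SD, n = 5), and the paired difference was -41.8 ± 15.5 percentage points (two-sided exact sign-flip permutation test over 5 pairs, p = 0.0625, the smallest that 5 pairs allow). A cell entered the comparison class only with a Cd8a or Cd8b1 UMI, and the same requirement was applied to the selected cells for this value.

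Counted by cell, 78 of the 288 cells (27.1%, 22.3% to 32.5%) had Cd8a without Cd8b1, 8 had both, 6 had Cd8b1 alone and 196 (68.1%) had neither. Cd8a without Cd8b1 was found in 2 of 6, 5 of 21, 49 of 173, 15 of 50 and 7 of 38 cells of the 5 libraries. After thinning to 2000 UMIs, 25.5% had Cd8a alone and 73.0% had neither. A missing UMI does not show that a cell lacked the RNA. In the comparison class 8.18% of 3092 cells had Cd8a alone and 70.7% had both genes. Combination 2 held 4 of the 8 cells with both genes and 24 of the 38 Cd8b1 UMIs of the selected cells. Of 83 γδ T cells with Fcer1g or Tyrobp, 4 had Cd8a alone.

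**Figure D2:**
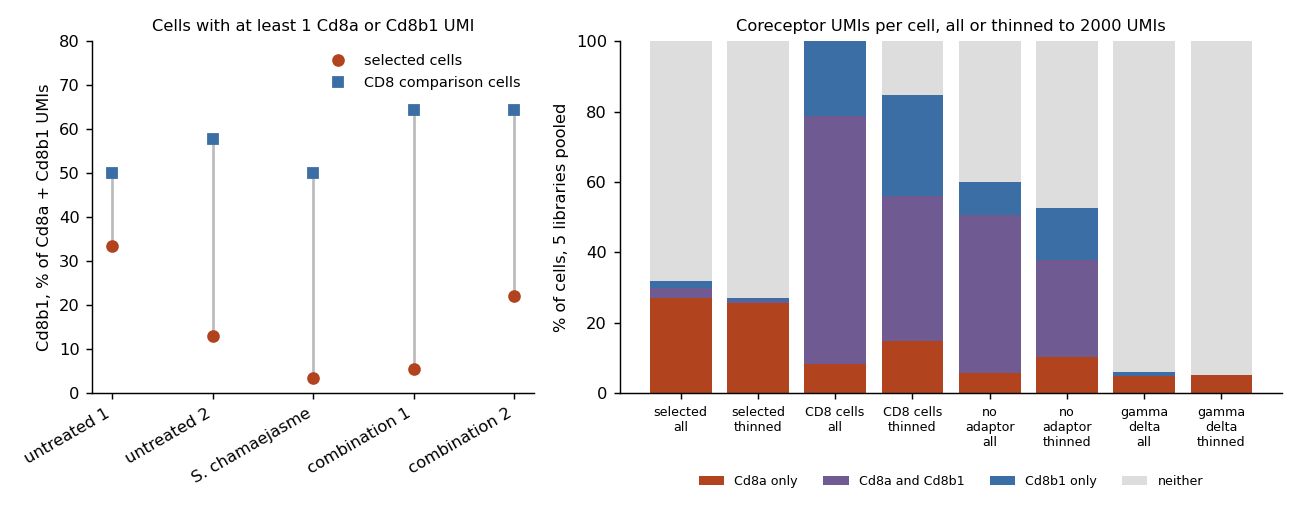
Left, the Cd8b1 share of Cd8a plus Cd8b1 UMIs by library, at 3.50% to 33.3% in the selected cells (circles) and 49.95% to 64.4% in CD8 cells without the adaptors (squares). Right, the percentage of cells with Cd8a only, both genes, Cd8b1 only or neither, pooled over the 5 libraries, before and after thinning to 2000 UMIs; 27.1% of the selected cells had Cd8a only, and “no adaptor” stands for the 2090 cells that met the rule except for the adaptor UMI.

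The 86 selected cells with Cd8a and the 202 without it differed in some genes, given as a description. Itgae, which encodes the αE integrin CD103 that binds epithelial E-cadherin, had a UMI in 64.0% of cells with Cd8a and 28.2% of cells without it (331 against 105 CPM). The Itgae share was higher in the cells with Cd8a in each of the 5 libraries, among them 69.2% against 35.5% in S. chamaejasme, 40.0% against 22.9% in combination 1 and 90.9% against 14.8% in combination 2. Cd244, the SLAM-family receptor 2B4, was seen in 41.9% against 27.7%. Klrk1, which encodes the activating receptor NKG2D, went the other way when pooled, at 15.1% against 35.1%, although in combination 1 the shares were equal (40.0% against 40.0%), as did the costimulatory receptor gene Cd28, at 31.4% against 50.5%. Ikzf2 (69.8% against 71.3%) and Klrd1 (66.3% against 66.8%) had like shares in both. Median depth was 3643 UMIs in the first set and 3809 in the second.

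To ask which other genes set these cells apart, UMIs were summed per library and compared with 3092 CD8 T cells of the same tumours. The comparison cells met the same filters for T cell genes, Lyz2, Cd4 and TRB, held Cd8a or Cd8b1, and had no UMI of Fcer1g or Tyrobp. A library entered with at least 20 cells in both classes, so untreated 1, with 6 selected cells, is left out of this fit, and 4 pairs remained. edgeR's quasi-likelihood test with the library as a block called 353 of 7808 genes higher (4.52%) and 425 lower (5.44%) in the selected cells at an adjusted p under 0.05 (Benjamini-Hochberg). The median log2 difference over all genes tested was -0.01. Of the 6788 genes that reached 6.95 CPM in all 4 comparison libraries, 225 were higher and 423 lower. Without combination 1, 473 genes in both directions passed, against 778 with it. Genes of the rule, Cd8a and Cd8b1 are given no test, and changes in cell composition within a class cannot be told apart from changes of RNA per cell.

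NK receptor genes were higher in the selected cells. Of 24 genes listed, 13 passed the filter on low values, set at 6.95 CPM. Only 5 of them reached it in all 4 comparison libraries, and of these Klrd1 and Klrk1 were higher and 0 lower. Another 7 (Cd244, Klre1, Klra5, Klra7, Klra3, Klra1 and Ncr1) reached it in every library of the selected cells but not of the comparison class, so that they had to differ. Their values are given as a description, and no count or median over the list is read. Klra5, an inhibitory Ly49 receptor of the C-type lectin family, was at 324, 262, 205.5, 284 and 303 CPM in untreated 1, untreated 2, S. chamaejasme, combination 1 and combination 2. In the comparison cells Klra5 was at 0, 0.90, 6.87, 0 and 0.636 CPM, so every library of the selected cells stood far above every library of the other class. The fitted log2 difference was 6.71, given without a test. Klra7 was higher by 5.56, Klra3 by 4.38 and Klre1 by 4.16 on the log2 scale. Klra1 (54.4 ± 34.2 CPM) and Ncr1 (42.9 ± 21.8 CPM; SD, n = 4), the latter encoding the NK receptor NKp46, had no UMI in the comparison cells of these 4 libraries, and were at least 199-fold and at least 161-fold higher against a floor of 3 counts over that class.

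Ly49 genes are near-identical copies of each other, and which copy a read was assigned to is uncertain. Counted together, a UMI of Klra1, Klra3, Klra5 or Klra7 was found in 153 of 288 selected cells (53.1%, 47.4% to 58.8%), and 55 cells had more than 1 of the 4 genes. By library the share was 33.3%, 71.4%, 52.0%, 54.0% and 50%. In the comparison class it was 38 of 3092 cells (1.23%), and in γδ T cells with the adaptors 55.4%. After thinning, 44.2% of the selected cells and 0.659% of the comparison cells had a UMI of these genes. Of the NK receptor genes that reached the filter on low values in all comparison libraries, Klrd1, which encodes CD94, and Klrk1 were called. Klrd1 was higher by 1.76 (SE 0.13) and Klrk1 by 2.34 (SE 0.23) on the log2 scale.

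Cd244 was at 0 CPM in untreated 1, where 3 counts would be 139 CPM, and at 115, 139, 125 and 109.8 CPM in the other 4 libraries. The comparison cells had 5.83, 1.80, 15.7, 4.15 and 3.18 CPM of Cd244. All 4 libraries in the fit lay above all comparison libraries, with a log2 difference of 4.01. Cd244 entered the fit through the selected cells, so these values are a description. Kit, the receptor for stem cell factor, was at 0, 94.4, 79.2, 104.5 and 57.5 CPM against 6.47, 3.15, 6.87, 3.93 and 2.97 CPM, above all comparison libraries in the 4 libraries tested. Kit also entered the fit through the selected cells, and its log2 difference of 3.93 is given without a test. Klri1, a killer cell lectin-like receptor gene, was higher by 5.71, Cited4, a transcriptional coactivator, by 4.49, Emid1 by 4.07 and Capn3, a calpain protease, by 3.38. Which class brought Klri1, Cited4, Emid1 and Capn3 past the filter on low values was not checked. Their differences are given without a test.

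Transcription factors of innate lymphocytes followed. Of 20 listed genes 18 could be tested, with a median of 0.61. Spry2 and Zbtb16 are in that median but passed the filter on low values through the selected cells, so their values are a description. Of the 14 genes that reached the filter in all comparison libraries, 5 were higher and 1, Rora, was lower. Of all 6788 genes that did so, 225 were higher and 423 lower. Ikzf2 encodes Helios, a zinc-finger factor of regulatory T cells and of thymocytes that received strong receptor signals. Its level was 555.5, 524, 429, 409.8 and 512 CPM in untreated 1, untreated 2, S. chamaejasme, combination 1 and combination 2 against 29.1, 27.0, 62.4, 28.6 and 34.6 CPM in the comparison cells. The Ikzf2 ranges did not overlap and the log2 difference was 3.33 (SE 0.18, adjusted p = 6.86e-12, edgeR). Foxp3, the defining factor of regulatory T cells, was at 0 in 4 of the 5 libraries and at 6.09 CPM in S. chamaejasme. Spry2, an inhibitor of receptor tyrosine kinase signalling, was higher by 4.88, Zbtb16, which encodes the innate-like T cell factor PLZF, by 3.44, Id3 by 1.26 and Tbx21, which encodes T-bet, by 1.18 on the log2 scale. Eomes missed the threshold (-1.39, SE 0.47, adjusted p = 0.0677, edgeR).

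**Figure D3:**
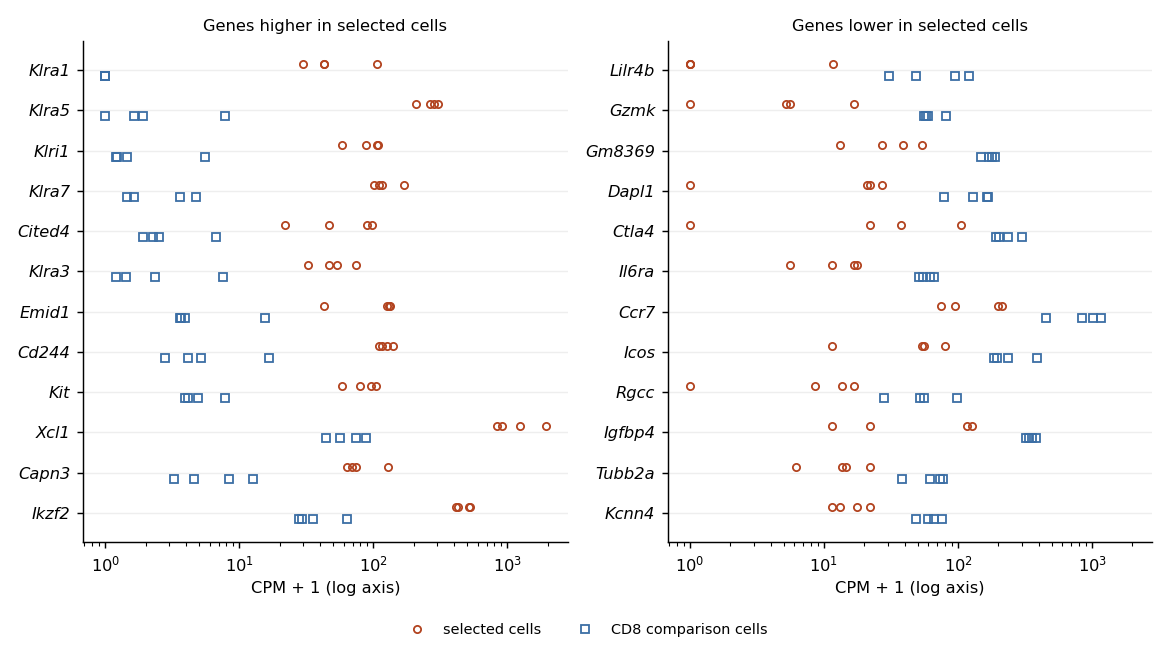
Levels in CPM plus 1 (log axis) in the selected cells (circles) and CD8 cells without the adaptors (squares), 1 point for each of the 4 libraries tested, for the 12 genes of largest difference in each direction. For the genes drawn the points of the classes do not overlap. Xcl1 belongs to the label and is shown without a test. Klra1, Klra3, Klra5, Klra7, Cd244 and Kit entered the fit through the selected cells. For Klri1, Cited4, Emid1 and Capn3 this was not checked.

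Genes of intraepithelial and tissue-resident lymphocytes were divided. Of 18 listed genes 15 could be tested, with a median of 0.85. Cd244 was 1 of the 15 and entered the fit through the selected cells. Of the 14 genes that reached the filter on low values in all comparison libraries, 8 were higher and 2 lower. Over all genes tested 4.52% were higher and 5.44% lower. Ahr, the aryl hydrocarbon receptor that intraepithelial lymphocytes depend on, was at 231.5, 346, 306, 364 and 335 CPM against 172, 90.5, 127, 47.1 and 59.6 CPM, with no overlap. The log2 difference of Ahr was 1.84 (SE 0.19, adjusted p = 2.81e-07, edgeR). Itga1, which encodes the collagen-binding integrin CD49a, was higher by 1.40 and Itgae by 0.67 (adjusted p = 0.0383, edgeR). Itgae was lower than in the comparison cells in untreated 2, at 21.0 against 39.6 CPM, and higher in the other 4 libraries. Itgb7, the partner chain of αE, was lower by 0.46 (SE 0.14). Cd69 and Cxcr6 did not pass.

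Genes of naive and circulating memory T cells were lower. All 17 listed genes could be tested, with a median of -1.27. Of these, 0 were higher and 11 lower, beside 4.52% higher and 5.44% lower over all genes tested. Ccr7, the lymph node homing receptor, was at 0, 73.4, 94.4, 213 and 199 CPM against 458, 843, 449, 1009.7 and 1157 CPM. Every library of the selected cells lay below every comparison library, and the log2 difference was -2.75 (SE 0.15, adjusted p = 8.80e-12, edgeR). Dapl1, a gene of naive and stem-like T cells, fell by 2.85, Il6ra, the interleukin 6 receptor, by 2.79, Igfbp4 by 2.38 and the transcription factor gene Lef1 by 1.62 against the comparison class on the log2 scale. Outside this list, Rgcc, a cell cycle regulator, was lower by 2.45, Tubb2a, a β tubulin, by 2.34, Kcnn4, a calcium-activated potassium channel, by 2.29 and Gm8369 by 3.0. Tcf7, which encodes TCF-1, was at 225 ± 31.5 against 216 ± 25.8 CPM (SD, n = 4) and did not pass (adjusted p = 0.400, edgeR).

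Proximal T cell receptor signalling genes were lower in part. Of 18 listed genes 17 could be tested, with a median of -0.13. Of these, 0 were higher and 6 were lower, beside 4.52% higher and 5.44% lower over all genes tested. Lat, the scaffold that links the receptor to calcium and Ras signals, was at 185, 273, 299.9, 305 and 272 CPM against 751, 753, 749, 678 and 636 CPM. The classes did not overlap, and the log2 difference of Lat was -1.55 (SE 0.12, adjusted p = 3.69e-09, edgeR). Cd5 and Cd6, inhibitory scavenger-family coreceptors, were lower by 1.86 and 2.09, and Ubash3a, a suppressor of receptor signalling, by 2.37. Cd5 had a UMI in 9.38% of the selected cells, 34.7% of the comparison cells and 6.02% of the γδ cells. Values for Lck (0.598), Zap70 (0.142) and Cd3d (0.609), given as adjusted p from edgeR, did not pass.

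Costimulatory and inhibitory receptors of activated T cells were mostly without a call. Of 12 costimulatory genes 0 were higher and 3 lower, with a median of -0.26, beside 4.52% higher and 5.44% lower over all genes tested. Icos was at 92.6, 10.5, 53.3, 54.4 and 78.4 CPM against 423, 194, 389.99, 185 and 234 CPM, again without overlap, and was lower by 2.62 (SE 0.22, adjusted p = 1.09e-08, edgeR). Of 13 inhibitory receptor genes 10 could be tested, with a median of 0.33. Of the 7 that reached the filter on low values in all comparison libraries, 0 were higher and 2 lower. Ctla4 was lower by 2.83 (SE 0.28). Cd200r1 stood higher by 2.49 but entered the fit through the selected cells. Pdcd1, which encodes PD-1, was at 185, 62.9, 16.7, 29.3 and 73.2 CPM against 14.2, 27.0, 15.2, 21.6 and 29.3 CPM and did not pass (adjusted p = 0.388, edgeR). Lilr4b, a leukocyte immunoglobulin-like receptor gene with a close copy in Lilrb4a, was lower by 3.95, although in untreated 1, outside the fit, it stood at 370.3 CPM from 8 UMIs against 197 CPM. Lilrb4a was lower by 3.43, and reads of the pair may have been assigned to either copy.

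Cytotoxic genes were called in both directions, and most cytokine genes were without a call. Over all genes tested 4.52% were higher and 5.44% lower. Of 18 granule genes 12 could be tested, 3 were higher and 2 lower, with a median of 0.23. Tnfsf10, counted as higher, entered the fit through the selected cells. Of the 11 genes that reached the filter on low values in all comparison libraries, 2 were higher and 2 lower. Ctsw, a protease of cytotoxic cells, was higher by 1.20 (1327 ± 318 against 483 ± 164 CPM, SD, n = 4). Gzmk, the granzyme of memory-type CD8 cells, was lower by 3.77, and Prf1, which encodes perforin, by 1.58. Gzma stood at 0, 10.5, 674.5, 75.3 and 1987 CPM against 882, 183, 432, 322 and 189 CPM, overlapped between classes and did not pass (adjusted p = 0.793, edgeR). These Gzma UMIs came from few cells: 0 of 6, 1 of 21, 8 of 173, 1 of 50 and 7 of 38 cells, with single cells of 254 UMIs in S. chamaejasme and 143 in combination 2. Of 19 cytokine and chemokine genes 10 could be tested, and 7 of them reached the filter in all comparison libraries. Of these 7, 1 was higher, Ccl3 by 1.02, and 0 were lower. Csf2, which encodes GM-CSF, stood higher by 4.20 but entered the fit through the selected cells. Of 14 cytokine receptors tested 2 were higher (Il12rb2 by 1.98, Il2rb by 0.97) and 1 lower, with a median of -0.23, and of 5 chemokine receptors tested 0 were higher and 2 lower, with a median of -0.19.

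**Figure D4:**
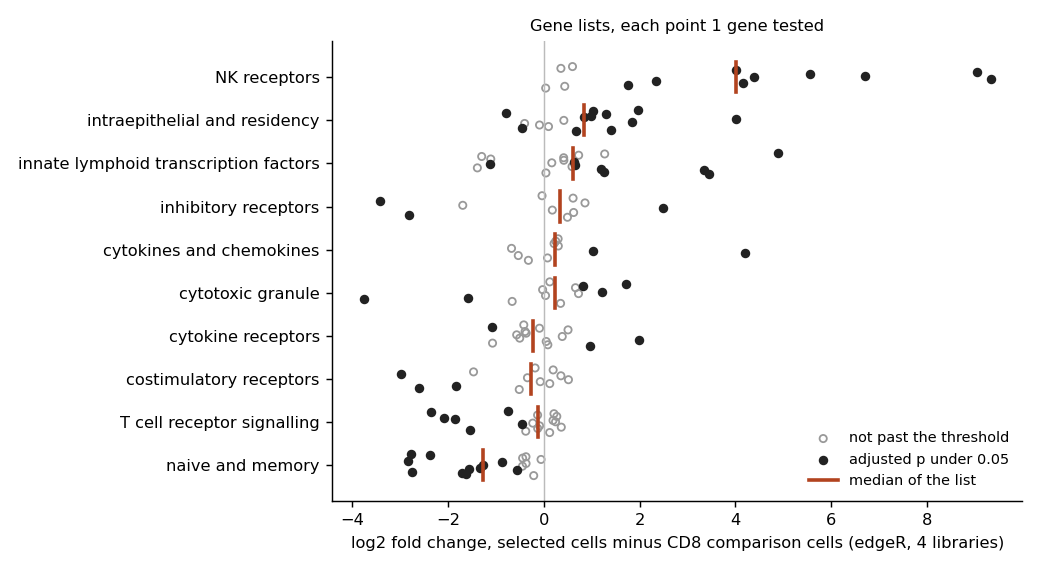
Gene lists in the comparison of the selected cells with CD8 cells without the adaptors; each point is the fitted log2 difference of 1 tested gene, filled where it passed edgeR's test, and bars are list medians. Naive and memory genes have a median of -1.27, beside -0.01 over all 7808 genes tested. Of the 13 NK receptor points 7 are genes that entered through the selected cells. In other lists Cd244, Tnfsf10, Spry2, Zbtb16, Csf2, Cd101 and Cd200r1 did so too. The points of Klra1 and Ncr1, which had no UMI in the comparison cells, are model values and no bounds.

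RNA of the γ chain locus was higher in these αβ T cells. Of 16 γδ genes listed 6 could be tested. Tcrg-C1, Tcrg-C2 and Tcrg-C4 passed the filter on low values through the selected cells, so no count over the list is read. Trgv2, a γ variable segment, was at 231.5, 157, 435.5, 247 and 356 CPM against 66.0, 11.7, 76.1, 27.7 and 24.2 CPM, without overlap, and was higher by 2.89 (SE 0.19, adjusted p = 1.85e-10, edgeR). Tcrg-C4 was higher by 3.16, Tcrg-C1 by 2.99 and Tcrg-C2 by 2.61. Trdc, the δ constant gene, had a UMI in 1.74% of the selected cells and 0.485% of the comparison cells. Leaving out cells with Trdc also gave 778 called genes.

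Markers of other cell types were summed in each library, and their part in the results above was not tested where they differed. All 5 neutrophil markers were at 0 in the selected cells, as were 7 of 10 macrophage markers, including Csf1r, C1qb and Adgre1, and the macrophage sum was 56.3 to 139 CPM against 51.2 to 171 CPM in the comparison class. Dendritic markers summed to 42.0 to 78.4 against 11.0 to 40.6 CPM. Flt3, Xcr1, Clec9a and Siglech were at 0, and the MHC class II gene H2-Ab1 was higher by 2.32. Of 6 mast cell markers 5 were at 0 and Kit alone was detected. B cell markers summed to 0 to 21.0 CPM with Cd79a and Ms4a1 at 0. Epithelial markers summed to 31.5 to 67.0 against 5.30 to 17.5 CPM. Cdh1, which encodes E-cadherin, was higher by 2.89 and Epcam by 1.5, although Cdh1 entered the fit through the selected cells. The keratins Krt8, Krt18 and Krt20 were at 0. NK markers summed to 0 to 304 against 30.9 to 66.6 CPM, with Klra4 and Klra8 at 0, and each selected cell had a productive TRB contig. Regulatory T cell markers summed to 519 to 833 against 113 to 193 CPM, most of it Ikzf2, and the innate lymphoid sum was 388 to 533 against 520 to 754 CPM. Other lists of the comparison gave 3 of 5 NK markers higher, all 3 admitted by the filter on low values through the selected cells, and 1 lower, 0 of 3 innate lymphoid markers higher and 2 lower, 0 of 7 cell cycle genes higher and 1 lower, 1 of 15 heat shock genes higher and 3 lower, 1 of 12 receptor-induced early genes higher and 2 lower, and 0 of 5 RNA quality genes higher and 1, Gm42418, lower. Shares over all genes tested were 4.52% higher and 5.44% lower, and these counts are not read as results about the lists. Of the ITAM adaptors and partners other than the rule genes, 2 could be tested and 0 passed, and the single macrophage, B cell and stromal genes tested did not pass.

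The class most like the selected cells was γδ T cells that met the same RNA criteria, held Trdc and had no productive TRB contig (83 cells). Only S. chamaejasme (173 and 40 cells) and combination 1 (50 and 23 cells) entered, which leaves 1 residual degree of freedom. edgeR called 21 of 2733 genes higher (0.768%) and 54 lower (1.98%) in the αβ cells. The lower genes included effector genes. Klrc1, which encodes the CD94 partner NKG2A, was at 103.5 and 209 CPM in the αβ cells against 571 and 683 CPM in the γδ cells of the 2 libraries, and was lower by 2.13 (SE 0.22, adjusted p = 5.28e-07). Ifng, which encodes interferon γ, was at 108 and 179.8 against 620.3 and 349.9 CPM and lower by 1.93 (SE 0.27, adjusted p = 5.02e-05, edgeR). Both genes were lower in the αβ cells of each library.

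Against the same γδ cells, Ncr1 was lower by 2.47, the chemokine genes Ccl4 and Ccl3 by 1.99 and 1.64, Gzma by 1.72 and Gzmb by 1.53 on the log2 scale. Few selected cells held the granzyme UMIs. In S. chamaejasme 8 of 173 had Gzma and 15 had Gzmb, and in combination 1 it was 1 and 3 of 50. Of 8 granule genes tested 0 were higher and 4 lower, beside 0.768% higher and 1.98% lower over all genes tested. Of 6 cytokine genes 0 were higher and 4 lower. Heat shock and dissociation genes (0 higher, 7 lower of 14) and receptor-induced early genes (0 higher, 5 lower of 11) moved with them, as did 2 of 5 RNA quality genes (Malat1 higher, Gm42418 lower), and their part in the difference was not tested. Capn3 was higher by 2.04, Dgkd, a diacylglycerol kinase, by 2.05 and Ccr7 by 1.55. Klra5 (0.48, adjusted p = 0.538) and Ikzf2 (0.08, adjusted p = 0.964, edgeR) did not pass. These calls were fragile: without the library block 12 genes passed, with TRB contigs of at least 2 UMIs 10, and with all 5 libraries admitted 10.

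No expanded clone was detected among the selected cells. Clone size was the number of cells with the same deposited clonotype identifier among all cells of a library that passed the RNA filters. The 288 selected cells were 288 clones, and 0 lay in a clone of 2 or more cells, where 3 cells would be 1.04%. In the comparison class 32.9% of cells lay in such clones in untreated 1, 18.8% in untreated 2, 44.1% in S. chamaejasme, 7.03% in combination 1 and 12.6% in combination 2, and its largest clone had 44 cells. The mean of the comparison class was 23.1% ± 15.2 (SD, n = 5). With 0 in every library of the selected cells a paired test has its sign fixed, and none is read. The upper limits of the selected cells' intervals were 39.0%, 15.5%, 2.17%, 7.13% and 9.18%, so that in untreated 1 and combination 1 the 0 could not be told from the comparison share at these cell numbers. By TRBV gene and CDR3 nucleotides in place of the clonotype identifier, 2 selected cells shared a chain with another cell of their library, 1 with a cell of another library and 0 with each other. The number of selected cells per library, 6 to 173, limits how small a clone share could be seen.

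A productive α chain was also present in 228 of the 288 cells (79.2%) and in 86.6% of the comparison cells. More than 1 productive α chain was seen in 13.5% against 9.99%, and more than 1 β chain in 17 cells (5.90%) against 4.27%. The combination of doublet scores and extra β chains marked 39 of the 288 cells (13.5%) and 8.12% of the comparison class as possible doublets. Removing them left untreated 2 with 19 selected cells, under the minimum of 20, so that this library also left the fit, and 678 genes passed. The invariant chains TRAV11 with TRAJ18, of invariant NKT cells, and TRAV1 with TRAJ33, of mucosal-associated invariant T cells, were each found in 0 of 228 cells with an α chain, where 3 cells would be 1.32%.

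A set of 4 β variable genes were used more often by these cells, and 22.9% of their clones (66 of 288, 18.4% to 28.1%) carried 1 of them. Clones were counted once per library and class. Of 19 TRBV genes with at least 10 clones, 5 passed edgeR's test (26.3%), 4 higher and 1 lower. The 4 were grouped because they passed in these same clones, so their joint shares are a description. TRBV12-2 was used by 10 of 288 clones (3.47%) against 9 of 2566 (0.351%) in the comparison class, a log2 difference of 3.47 (SE 0.66, adjusted p = 4.44e-05). TRBV12-1 was used by 9 clones (3.12%) against 7 (0.273%), TRBV16 by 22 (7.64%) against 32 (1.25%) and TRBV3 by 25 (8.68%) against 59 (2.30%). Their log2 differences were 3.11, 2.23 and 1.71 (adjusted p = 0.000466, 0.000466 and 0.00486, edgeR). CD4 clones carried 1 of the 4 genes in 108 of 5299 cases (2.04%), and the comparison CD8 clones in 107 of 2566 (4.17%).

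The clones with 1 of the 4 genes were 0 of 6 in untreated 1, 3 of 21 in untreated 2 (14.3%), 44 of 173 in S. chamaejasme (25.4%), 10 of 50 in combination 1 (20%) and 9 of 38 in combination 2 (23.7%). The comparison class had 5.93%, 4.12%, 5.94%, 2.88% and 3.53%, below the selected cells in the 4 libraries with at least 20 of them. Because the 4 genes were chosen from these same clones, this order is a description and no further support. Without the S. chamaejasme library 0 of 18 TRBV genes passed (4 at an unadjusted p under 0.05, edgeR). TRBV13-2 was lower (1 clone against 93, log2 difference -3.04, adjusted p = 0.0281, edgeR), and this call was lost without untreated 1, without untreated 2, without combination 1 and without S. chamaejasme. The files also use a joined segment name, TRBV12-2+TRBV13-2, for 33 clones (11.5%) against 288 (11.2%), so the assignment of reads between these segments, and between the near-identical TRBV12-1 and TRBV12-2, is uncertain. In GRCm38 the 4 segments lie on the plus strand of chromosome 6, at 6:41048290-41048828 (Trbv3), 6:41113550-41114067 (Trbv12-1), 6:41118851-41119364 (Trbv12-2) and 6:41151740-41152230 (Trbv16).

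**Figure D5:**
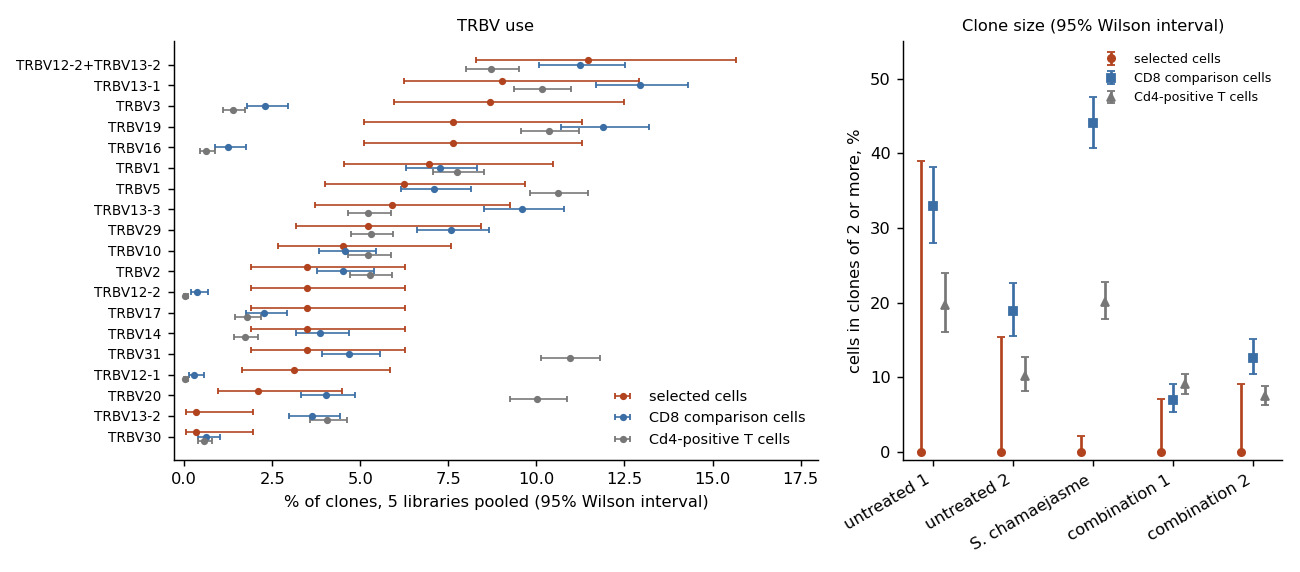
Left, the percentage of clones that use each TRBV gene tested, pooled over the 5 libraries; right, the percentage of cells in clones of 2 or more cells by library; bars are 95% Wilson intervals, for the selected cells, CD8 cells without the adaptors and CD4 T cells. TRBV3, TRBV16, TRBV12-2 and TRBV12-1 lie higher in the selected cells (8.68%, 7.64%, 3.47% and 3.12%), which have 0 cells in such clones in each library.

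To show how far clones with the same V gene differed, the CDR3β nucleotide sequence of 1 selected cell is given per V gene and library, that of the clone with the most TRB UMIs. Sequences read from the conserved cysteine codon to the phenylalanine codon, 5′ to 3′, and capitals mark the bases that match neither the germline V nor the germline J segment, that is, D segment and added bases.
TRBV12-1, S. chamaejasme, TRBJ2-1: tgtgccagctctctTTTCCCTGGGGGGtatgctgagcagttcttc
TRBV12-1, combination 1, TRBJ1-4: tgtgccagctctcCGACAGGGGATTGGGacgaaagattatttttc
TRBV12-1, combination 2, TRBJ1-2: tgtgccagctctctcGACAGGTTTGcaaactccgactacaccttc
TRBV12-1, untreated 2, TRBJ2-1: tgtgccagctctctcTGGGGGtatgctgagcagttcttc
TRBV12-2, S. chamaejasme, TRBJ1-1: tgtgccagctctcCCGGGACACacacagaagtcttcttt
TRBV12-2, combination 1, TRBJ2-7: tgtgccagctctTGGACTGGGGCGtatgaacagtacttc
TRBV12-2, combination 2, TRBJ1-4: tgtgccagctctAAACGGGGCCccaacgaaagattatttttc
TRBV12-2, untreated 2, TRBJ2-4: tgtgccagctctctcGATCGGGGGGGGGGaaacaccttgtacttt
TRBV16, S. chamaejasme, TRBJ1-4: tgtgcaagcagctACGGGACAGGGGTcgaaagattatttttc
TRBV16, combination 1, TRBJ2-7: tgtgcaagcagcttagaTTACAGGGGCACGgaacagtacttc
TRBV16, combination 2, TRBJ2-7: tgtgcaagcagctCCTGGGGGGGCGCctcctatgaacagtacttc
TRBV3, S. chamaejasme, TRBJ2-1: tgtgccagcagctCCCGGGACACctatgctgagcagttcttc
TRBV3, combination 1, TRBJ2-7: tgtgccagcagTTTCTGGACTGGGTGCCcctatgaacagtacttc
TRBV3, combination 2, TRBJ2-5: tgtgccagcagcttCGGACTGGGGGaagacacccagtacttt
TRBV3, untreated 2, TRBJ2-7: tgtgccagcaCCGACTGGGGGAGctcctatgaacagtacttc
Cells with the same V gene differed in the J segment, in the capitals, or in both. The CDR3β had a median of 42 bases in the selected cells and in the comparison cells, and the bases in capitals had a median of 10 in both. The α chains were as varied: the selected cells used 56 TRAV genes, and of 52 TRAV genes tested 0 passed edgeR's test (0.0% called; 6 at an unadjusted p under 0.05).

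Between treatment groups, few genes could be compared within the selected cells. Only untreated 2, with 21 cells, stood for the untreated group, because untreated 1 had 6 cells and is left out of the fit, and 1 residual degree of freedom, from the 2 combination libraries, set the spread. edgeR called 18 of 3857 genes higher (0.467%) and 39 lower (1.01%) in the combination, with the lone untreated library assumed to vary like the combination pair. The S. chamaejasme contrast sets 1 library against 1, so that its 44 higher (1.14%) and 98 lower (2.54%) genes compare these libraries, not the treatments, and no gene is called from it below. Both contrasts share the untreated library. DESeq2 called 1 gene in the combination and 0 with S. chamaejasme (50 at an unadjusted p under 0.05).

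Rgs10, a regulator of G protein signalling, was at 46.3 CPM in untreated 1, 42.0 in untreated 2, 171 in S. chamaejasme, 134 in combination 1 and 267 in combination 2. The Rgs10 value of untreated 1 was 1 UMI in 1 of its 6 cells, where 3 counts would be 139 CPM, too few to place it. Untreated 2 lay below the treated libraries, and the combination was higher than untreated 2 by 2.13 on the log2 scale. Psmb9, a subunit of the immunoproteasome, was at 139, 52.4, 227, 205 and 256 CPM, with 3 UMIs in untreated 1. It was higher in the combination than in untreated 2 by 2.04 on the log2 scale. Itgae was at 278, 21.0, 195, 151 and 214 CPM. Its call in the combination (3.0, adjusted p = 0.00597, edgeR) rested on untreated 2, since untreated 1, with 6 UMIs in 3 of its 6 cells, stood above all treated libraries. With untreated 1 admitted the Itgae difference was 1.36 and did not pass.

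Gzma passed in the combination (6.47), on the few cells given above, 1 of them in untreated 2, with a single UMI. Lmna, which encodes the nuclear lamins A and C, was at 46.3, 241, 13.7, 33.5 and 5.23 CPM, with a log2 difference of -3.59 in the combination. The predicted gene Gm8797 was at 92.6, 503.5, 21.3, 12.5 and 5.23 CPM and had a log2 difference of -5.77 in the combination. Both genes were highest in untreated 2. Trpc4ap had no UMI in either untreated library and 62.4, 75.3 and 83.7 CPM in S. chamaejasme, combination 1 and combination 2, and Cela1 none and 51.8, 71.1 and 78.4 CPM, where 3 counts would be 139 CPM in untreated 1 and 31.5 in untreated 2. Itga1, at 46.3, 0, 85.3, 87.8 and 41.8 CPM, Actl6a, at 46.3, 0, 83.7, 66.9 and 26.1 CPM, and Smpd5, at 92.6, 0, 89.8, 37.6 and 62.7 CPM, had no UMI in untreated 2 but had UMIs in untreated 1.

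Genes that follow RNA quality moved with the groups. Gm42418, which overlaps ribosomal RNA, was at 9444 CPM in untreated 1, 15523 in untreated 2, 6906 in S. chamaejasme, 6828 in combination 1 and 4068 in combination 2. Lars2 was at 1389, 1552, 591, 757 and 324 CPM. Both were above all treated libraries in both untreated libraries, and their part in the group differences was not tested.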

How the data were processed

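Cells of 5 RNA libraries and 5 T cell receptor libraries of mouse colorectal carcinoma were analysed. The deposited RNA matrices contain whole-number UMI counts of genes in cells, without normalization, made with Cell Ranger 3.1.0 and STAR on mm10, per the submitters' processing notes; the gene annotation and the version of STAR go unnamed in the sources used here. The receptor files deposited by the authors list contigs with counts of reads and UMIs, gene segments, CDR3 nucleotides and a clonotype identifier. The extract protocol names a 5′ chemistry, per the labels' protocols.

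The cell population, gene lists and tests were chosen with earlier results of these data known. Counts were summed per library and class where a class held at least 20 cells, and CPM were taken from these sums. edgeR 4.0.16 (R 4.3.3; TMM, filterByExpr, glmQLFit, glmQLFTest, two-sided, Benjamini-Hochberg over all genes tested, threshold 0.05) was the main test, with the library as a block between classes, because both classes come from the same library. The standard error is the log2 difference divided by the root of the F statistic. The test was tried on simulated counts. V genes were tested on clone counts with at least 10 clones per gene. DESeq2 1.42.0 was the alternative. Thinning drew 2000 UMIs per cell without replacement (274 of 288 selected cells and 3035 of 3092 comparison cells were deep enough). Named genes were the 12 (8 between treatment groups) with the largest difference in each direction among those that passed. They needed 50 CPM or more in a class or treatment group. Between classes, but not between treatment groups, they also needed the same sign in every library of the fit. Up to 4 list genes of the largest difference were added. Other genes named from lists, and those named as not passing, were chosen after their values were seen.

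Doublets stayed in. Scrublet (scanpy 1.11.5) with its automatic threshold marked 17 cells, which is too few to have worked, so an alternative removed the highest scores, 0.8% per 1000 cells of a library, and cells with more than 1 productive β chain. Gene positions come from GENCODE for GRCm38, the assembly of mm10. Tables were handled with pandas 2.3.3, scipy 1.17.1 and numpy 2.4.6 under Python 3.11.15, and plots drawn with matplotlib 3.10.9. Classes were paired by library. Treatment groups were not paired, since replicate numbers only name the libraries.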

Additional observations from a re-analysis of the deposited data

How the results depend on the processing

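The comparison with CD8 cells gave 778 genes, 545 with DESeq2 (median log2 difference over its 12012 genes 0.23) and 473 to 783 when each library was left out, the lowest without combination 1; the library block paired the classes, and without it 634 genes passed. All 356 values of its named genes under the alternatives in which they were tested kept direction and call. Some of these genes, among them Klra5, Cd244 and Kit, had entered the fit through the selected cells. For others, among them Klri1 and Cited4, this was not checked. The γδ comparison (75 genes, 21 higher) gave 12 with DESeq2 (0 higher), 12 with no replicate block, 10 with no minimum of cells and 10 with TRB contigs of at least 2 UMIs, and 60 of 141 values of named genes lost the call. The combination contrast (57 genes, 18 higher and 39 lower) gave 1 with DESeq2, 21 with RLE factors (2 higher, 19 lower), 31 with no filter on low counts and 14 with no minimum of cells. The S. chamaejasme contrast, 1 library against 1 (142 genes, 44 higher and 98 lower), gave 0 with DESeq2, 51 with no minimum of cells and 104 with RLE factors (19 higher, 85 lower). Of the named genes' values 45 of 96 and 31 of 80 lost the call in these contrasts. The TRBV test (5 genes, 5 without the block) gave 3 against cells that met the rule except for the adaptor, and 0 to 5 when each library was left out, 0 without S. chamaejasme; the TRAV test (0 genes, 0 without the block) gave 2 when cells replaced clones. The cause of these changes was not tested. The difference in Cd8b1 share ran from -37.5 to -54.6 points and that in clones of 2 or more cells from -17.2 to -27.1 over all alternatives. The clone difference has its sign fixed where 0 selected cells lie in such clones, so its range is no support. The difference in the share of selected cells between combination and untreated ran from 0.177 to 0.612 points. No value reversed. Admitting classes of under 20 cells, and leaving out libraries for that share, were chosen after seeing the data. Other leave-outs of the γδ and treatment contrasts, and some stricter cell filters there, left too few libraries with at least 20 cells and gave no value. Depth limits untreated 1 most, where 3 counts in the 6 selected cells are 139 CPM.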
